A study of Mus musculus with 9 samples.

Results

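A set of 8 mouse genes for the receptors of neurotrophins and of the GDNF family, together with Alk, was examined for binding of the glucocorticoid receptor (GR) and the mineralocorticoid receptor (MR). They are Ntrk2, Ntrk3, Ngfr, Ret, Gfra1, Gfra2, Gfra3 and Alk, which are 8 of the 21938 protein-coding genes of the annotation. A peak was counted at a gene when its summit lay in the gene body or within 20 kb of it in mm10, whatever its height. This gave 27 of the 10602 GR peaks and 30 of the 14638 MR peaks listed after corticosterone (CORT), none of the 64 GR and 73 MR peaks after vehicle, and 0 of 246 GR peaks and 2 of 4885 MR peaks after washout. The counts of 0 allow shares of up to 4.69% and 4.11% of the vehicle lists and 1.22% of the GR washout list.

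The cells were N2A (Neuro 2A), a mouse neuroblastoma line, transiently transfected with EGFP-GR and mCherry-MR, so every sample carried both tagged receptors from plasmids. They received vehicle for 20 minutes, 100 nM CORT for 20 minutes, or the same CORT treatment and then, once the steroid was removed, 40 minutes in medium lacking it (washout). The EGFP tag served to pull down GR and the mCherry tag to pull down MR, and binding was read by ChIP-nexus, in which an exonuclease trims precipitated DNA up to the crosslinked protein. The plasmids held rat receptors by the study's methods, whereas the deposited design text names mouse receptors. Each receptor and treatment had 3 replicates that were joined into 1 peak list, and input chromatin of each treatment gave lists of exonuclease borders. There is therefore no spread between replicates and no test between conditions, and the intervals given here cover counting error only. By the study's account, fewer CORT sites, and for GR far fewer, were called in more than 1 single replicate than stand in the joined list. Which of the peaks described here recurred cannot be read from the joined lists. The labelled cell type could not be checked against marker genes, because expression was not among the measurements used here.

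Neurotrophins signal through the Trk tyrosine kinases and through the shared receptor p75. Members of the GDNF family bind GFR-alpha proteins, which are anchored to the membrane by a lipid and pass the signal to the tyrosine kinase Ret. These receptors guide the survival and differentiation of neurons derived from the neural crest, the lineage from which neuroblastoma arises. Alk, a receptor tyrosine kinase active in developing neurons, is a known target of activating mutations in neuroblastoma. GR and MR are steroid receptors that both bind corticosterone and recognize a shared DNA element, the glucocorticoid response element (GRE).

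The sequences that carry the results are shown first. They are the best-ranked site with a GRE at each of the 5 genes that had one, the other site that still had an MR peak after washout, and, chosen after their values were seen, 3 more sites with a peak in the strongest 10% of a CORT list. All are on the plus strand of GRCm38, 5′ to 3′. Capitals mark a single GRE match per site, the one with fewest mismatches and, among equals, nearest to a summit. Where no GRE was found, they mark an AP-1 or GATA letter match on either strand. Other matches stay in lower case, such as the one that starts at chr19:58408966 in the Gfra1 stretch. A GRE was scored where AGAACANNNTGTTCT was met, on any strand and up to 100 bp from a summit, with no more than 3 of the 12 fixed letters changed. The substitutions given with each site are counted from 1 at the 5′ end of the match as printed, with the letter of the element first.
Ntrk3, MR kept after washout, chr7:78269731-78269812: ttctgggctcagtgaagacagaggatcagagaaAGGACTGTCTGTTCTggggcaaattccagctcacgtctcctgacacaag
Ntrk3, MR kept after washout, AP-1 in capitals, chr7:78581468-78581548: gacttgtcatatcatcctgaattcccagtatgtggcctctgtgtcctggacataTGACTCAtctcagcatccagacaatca
Ntrk3, strong MR peak, no GRE, chr7:78579003-78579083: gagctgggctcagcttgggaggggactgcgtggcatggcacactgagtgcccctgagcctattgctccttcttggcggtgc
Ngfr, beyond the 3′ end, GATA in capitals, chr11:95559870-95559950: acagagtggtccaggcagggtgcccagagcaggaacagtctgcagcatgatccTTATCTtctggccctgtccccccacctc
Ngfr, coding exon, chr11:95577989-95578150: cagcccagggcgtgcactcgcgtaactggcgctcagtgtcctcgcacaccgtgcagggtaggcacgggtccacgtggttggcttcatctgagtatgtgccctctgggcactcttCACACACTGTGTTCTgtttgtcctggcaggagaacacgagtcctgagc
Ret, strong MR peak, no GRE, chr6:118189060-118189140: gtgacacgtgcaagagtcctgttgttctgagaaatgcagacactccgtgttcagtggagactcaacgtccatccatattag
Ret, intron 1, chr6:118190397-118190513: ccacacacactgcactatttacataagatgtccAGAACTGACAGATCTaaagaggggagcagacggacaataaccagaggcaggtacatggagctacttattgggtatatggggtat
Gfra1, intron 4, chr19:58408813-58408991: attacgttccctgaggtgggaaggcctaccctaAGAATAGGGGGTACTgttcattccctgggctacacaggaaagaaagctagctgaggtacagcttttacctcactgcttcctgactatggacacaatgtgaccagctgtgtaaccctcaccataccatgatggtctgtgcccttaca
Alk, intron 3, chr17:72292510-72292608: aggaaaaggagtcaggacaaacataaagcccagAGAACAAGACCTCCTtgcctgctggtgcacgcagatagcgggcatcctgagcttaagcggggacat

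After CORT, 6 of the 8 genes had at least 1 GR peak, and the same 6 had at least 1 MR peak (75.0%, exact 95% interval 34.9% to 96.8%). Under the same rule, 26.3% of all protein-coding genes carried GR and 30.2% carried MR. Long genes reach more peaks by their length, and among the 2492 protein-coding genes of at least 100 kb these shares were 42.8% and 49.6%. Of the 4 receptor genes of that length, Ntrk3, Gfra1 and Alk had peaks of both receptors and Ntrk2 had none. After vehicle no peak lay at any of the 8 genes, and the background was 0.109% of all protein-coding genes for either receptor. After washout GR peaks were listed at 1.02% of all genes and MR peaks at 14.3% (2.49% and 31.1% of genes of at least 100 kb), and Ntrk3 was the 1 gene of the 8 with an MR peak left.

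Per length, Ret had the densest binding of the 8 genes. With its flanks it had 6.98 GR peaks per 100 kb (exact Poisson 95% interval 2.56 to 15.2) and 5.82 MR peaks per 100 kb (1.89 to 13.6). Ngfr followed with 3.39 GR (0.411 to 12.3) and 5.09 MR peaks per 100 kb (1.05 to 14.9). Gfra1 had 1.92 and 1.54, Ntrk3 had 1.49 for each receptor, Gfra2 had 0.771 for each, and Alk had 0.516 GR and 1.03 MR peaks per 100 kb. Neighbours in this order were not separated by counting error. Intervals that did not overlap were those of Ret GR peaks against Alk (0.141 to 1.32) and Ntrk2 (0 to 1.00), and those of Ret and Ngfr MR peaks against Ntrk2 (0 to 1.00). Such intervals treat peaks as independent, whereas the peaks of Ret lie close together. The intervals may therefore be too narrow, and no difference between genes was tested. The 8 genes pooled had 1.15 GR and 1.28 MR peaks per 100 kb, against 0.656 and 0.862 over all protein-coding genes of any length. The 4 receptor genes of at least 100 kb had 0.898 and 1.05, against 0.548 and 0.778 over all genes of that length. A GR density as high as that of Ret was found at 1.36% of protein-coding genes, and an MR density as high at 3.21%. Those of Ntrk3 were reached by 18.4% and 21.9% of genes, and its 9 GR and 9 MR peaks lie in a span of 602 kb.

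**Figure D1:**
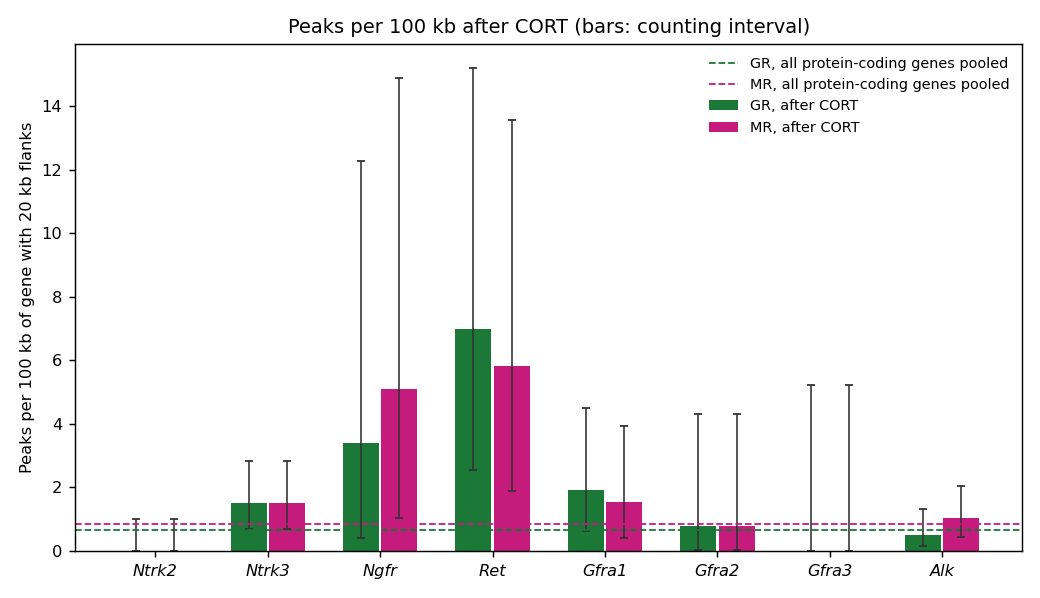
Peaks per 100 kb of each gene with its 20 kb flanks after CORT, for GR (green) and MR (magenta). Lines on the bars are exact Poisson 95% intervals of the peak count and dashed lines the pooled value over all protein-coding genes. Ret stands highest with 6.98 GR and 5.82 MR peaks per 100 kb, and Ntrk2 and Gfra3 are at 0.

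The peaks of all lists, joined where they overlapped by at least 1 bp, formed 37 sites. After CORT, 18 sites had peaks of both receptors, 8 with a GR peak alone and 11 with an MR peak alone. By position, 30 sites were intronic, 5 were in exons, 1 lay upstream and 1 downstream of its gene. None lay within 1 kb of the start of its own gene record, and 1, at Ntrk3, lay within 1 kb of the start of a coding transcript. No site lay in another protein-coding gene, and none lay on a border pair of any input list. In the RefSeq table used here, the promoters of Ntrk2, Ngfr, Gfra1 and Alk were given, and 0 peaks of any list overlapped them.

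**Figure D2:**
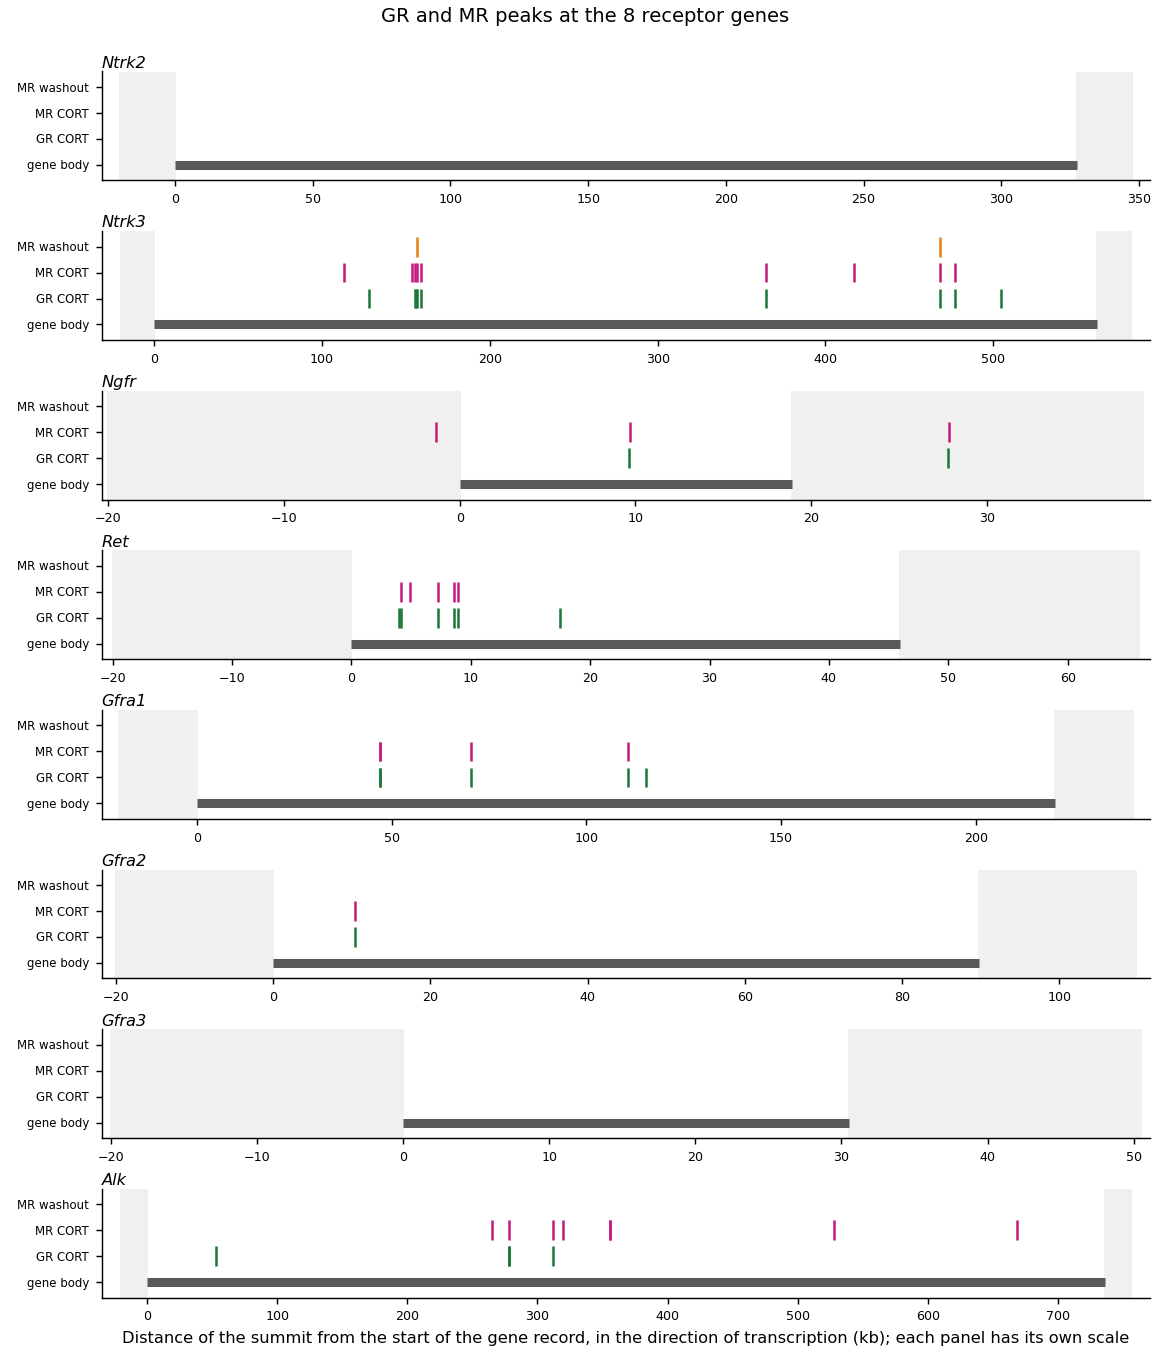
Position of each summit along the 8 genes, in kb from the start of the gene record in the direction of transcription, for GR after CORT (green), MR after CORT (magenta) and MR after washout (orange). Grey bars are gene bodies, pale areas the 20 kb flanks, and each panel has its own scale. All peaks of Ret but 1 lie between 3.96 and 8.95 kb, those of Ntrk3 lie in separate groups, and the 2 MR washout peaks are at Ntrk3.

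Of the Trk receptors, Ntrk3 and Ntrk2 lay at opposite ends. Ntrk3 encodes TrkC, the receptor for neurotrophin-3, and spans chr7:78175959-78738012 on the minus strand. It had 9 GR and 9 MR peaks after CORT, at 12 sites. Of these, 6 had both receptors, 3 GR alone and 3 MR alone. Its GR peaks had −log10 p values between 5.31 and 12.8 with a median of 9.99, and its MR peaks between 5.85 and 19.6 with a median of 9.43. The −log10 p of a peak is MACS2's value for enrichment over input, and it orders peaks within a list but is not an amount of binding.

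The sites of Ntrk3 fell into a proximal and a distal group. The proximal group began with a site at chr7:78578991-78579106, 0.635 kb upstream of the start of the nearest coding transcript. Its MR peak had a −log10 p of 19.6 and rank 823 of 14638, where 119 peaks tied, and its GR peak a −log10 p of 9.99 and rank 3521 of 10602. The site also lay 0.213 kb inside Gm9885, a non-coding gene on the opposite strand. Next came chr7:78581349-78581669, in a non-coding exon 3.10 kb upstream of that transcript, with −log10 p values of 12.8 for GR (rank 1633) and 16.4 for MR (rank 1620). The third such site, at chr7:78582289-78582409 and 3.97 kb upstream, ranked 3341 for GR and 3406 for MR and had a GRE with 2 mismatches. Between them lay a site of GR alone with a −log10 p of 5.31, which ranked 10321 of 10602, and 6.11 kb upstream lay a site of MR alone with 9.17. These 5 sites are inside the Ntrk3 gene record because 1 of its 6 coding transcripts, and several non-coding ones, start farther upstream. Within 10 kb, Ntrk3 gathered up to 4 GR and 4 MR summits, 8 together, a number that 1.08% of protein-coding genes of any length reached. A span of 602 kb offers more such windows than a short gene does, and the share among long genes was not computed.

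The next 2 sites of Ntrk3 lay farther upstream, 31.4 kb before the nearest coding start (GR alone, −log10 p 8.76) and 33.0 kb inside the longest-reaching coding transcript (MR alone, 7.83). Both held a GRE with 2 mismatches, and the latter was the 1 site of the 37 with the palindromic PHOX2 letters TAATNNNATTA. The distal group lay in introns 11 to 15 of the principal transcript. Its strongest site was in intron 12 at chr7:78269634-78269871, with −log10 p values of 12.6 for GR (rank 2031) and 15.3 for MR (rank 1785). The 2 summits were 71 bp apart. A GRE with 2 mismatches, A3G and A6T, was centred 1 bp from the MR summit. Another match with 2 mismatches, starting at chr7:78269680 and outside the printed stretch, lay 14 bp from the GR summit. Another site of both receptors in intron 12, at chr7:78260529-78260639, had 10.1 for GR and 9.43 for MR. The other sites of the group had −log10 p values between 5.85 and 9.89, and the best of their peaks stood at 41.5% of its list.

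Ntrk2 encodes TrkB, the receptor for BDNF, and is a major neurotrophin receptor of the brain. No list had a peak in its 327 kb body (chr13:58806569-59133970) or flanks, which is compatible with up to 1.00 peaks per 100 kb for each receptor. The nearest CORT summits outside were 313 kb away for GR and 313 kb away for MR, and the nearest MR washout summit was 205 kb away.

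Ngfr encodes p75, a receptor shared by all neurotrophins that lacks a kinase. It had 2 GR and 3 MR peaks after CORT at 3 sites, although its body is only 18.9 kb long (chr11:95568818-95587735). The strongest GR peak of the 8 genes was at Ngfr, 8.91 kb beyond its 3′ end, at chr11:95559850-95560025. It had a −log10 p of 17.2 and rank 653, and the MR peak at the same site had 17.8 and rank 1220, with summits 20 bp apart. No GRE was found there, but the window held GATA and NF-1 letters. The site at chr11:95577870-95578278 covered a coding exon and ranked 3341 for GR and 4328 for MR (29.6% of the MR list). A GRE match with 3 mismatches, A1C, G2A and A3C, lay 18 bp from the GR summit, leaving 1 half-site intact. It was the 1 site of the 37 with an MR border pair after CORT, at chr11:95578022-95578054, a stretch of 33 bp between exonuclease stops on opposite strands. The remaining site, of MR alone, lay 1.32 kb upstream of the gene with a −log10 p of 12.4 and rank 3159, the highest value among the 11 sites of MR alone.

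Ret encodes the kinase through which the GDNF family signals. It had 6 GR and 5 MR peaks at 7 sites in a body of 46.0 kb (chr6:118151745-118197718), and 6 of the sites lay in intron 1, with summits between 3.96 and 8.95 kb from the gene start. Counted within 10 kb, 5 GR and 5 MR summits gathered there, and 0.542% of protein-coding genes of any length reached these 10. The strongest MR peak was at chr6:118188910-118189190, 8.62 kb from the start, with a −log10 p of 19.6 (rank 823), while the GR peak of the same site had 9.99 (rank 3521). At chr6:118190397-118190540 both receptors ranked high, with 12.8 for GR (rank 1660) and 14.9 for MR (rank 1919), and summits 2 bp apart. This site had the only GRE of Ret, with 3 mismatches (A6T, T10A and T12A) and its centre 36 bp from the MR summit. The strongest GR peak, with a −log10 p of 14.2 and rank 1168, lay at chr6:118193699-118193977, and no MR peak overlapped it. A site of both receptors, chr6:118193572-118193652, lay right beside it, so that it counts as GR alone rests on the overlap rule. The other 2 sites with both receptors had 7.38 and 8.66 for GR and 7.83 and 6.54 for MR. A GR peak in a coding exon, 17.5 kb from the start, had 6.15, and an MR peak at 4.90 kb had 6.28.

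The 3 GFR-alpha co-receptors had between 0 and 5 GR peaks and between 0 and 4 MR peaks, and their intervals per 100 kb overlapped. Gfra1, which binds GDNF itself, had 5 GR and 4 MR peaks at 5 sites in introns 4 and 5 (chr19:58235604-58455909), between 47.0 and 115 kb from the gene start. Its GR peaks stood in the middle of the list or below it, with −log10 p values of 7.38 to 8.66 and a best rank of 5190. Its MR peaks ranged from 6.54 to 10.6. The 3 sites with both receptors each had a GRE, and the one at chr19:58345093-58345233 had 1 mismatch and lay 2 bp from the GR summit, the closest match to the element among the 37 sites. At chr19:58408833-58409001 a GR peak bridged 2 MR peaks, and a GRE with 3 mismatches, C5T, T10G and T13A, lay 1 bp from the weaker MR summit. Another match with 3 mismatches, starting at chr19:58408966, lay 22 bp from the stronger MR summit. Of the bases around the GR summit of this site, 73.3% were repeat sequence. Gfra2, the co-receptor preferred by neurturin, had 1 site in intron 2, 10.4 kb from the gene start (chr14:70900437-70900542), with 7.38 for GR and 7.83 for MR and no GRE. Gfra3, the artemin co-receptor, had none, and its nearest CORT summits were 47.6 kb away for MR and 63.1 kb for GR. With a span of 70.5 kb, a count of 0 at Gfra3 is compatible with up to 5.23 peaks per 100 kb, which covers the value of each of the other genes except that of Ret.

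Alk was the longest of the 8 genes, with a body of 736 kb (chr17:71868972-72604627), and held 4 GR and 8 MR peaks at 9 sites, all intronic. MR alone was listed at 6 of these, both receptors at 2 and GR alone at 1. The strongest MR peak lay in intron 3 at chr17:72292548-72292719, with a −log10 p of 14.9 and rank 1919, where the GR peak had 11.4 and rank 2345. Its GRE kept 1 half-site whole and had 3 substitutions in the other, T10C, G11C and T13C. The second site with both receptors, at chr17:72326329-72326644, had 2 GR peaks with −log10 p values of 9.99 and 12.8 on either side of an MR peak with 8.60, and a GRE with 2 mismatches. The 6 sites of MR alone had values between 5.31 and 9.17 and no GRE, and at 1 of them over 50% of the bases around the summit were repeat sequence. None of the sites of Alk lay within 50 kb of its start.

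**Figure D3:**
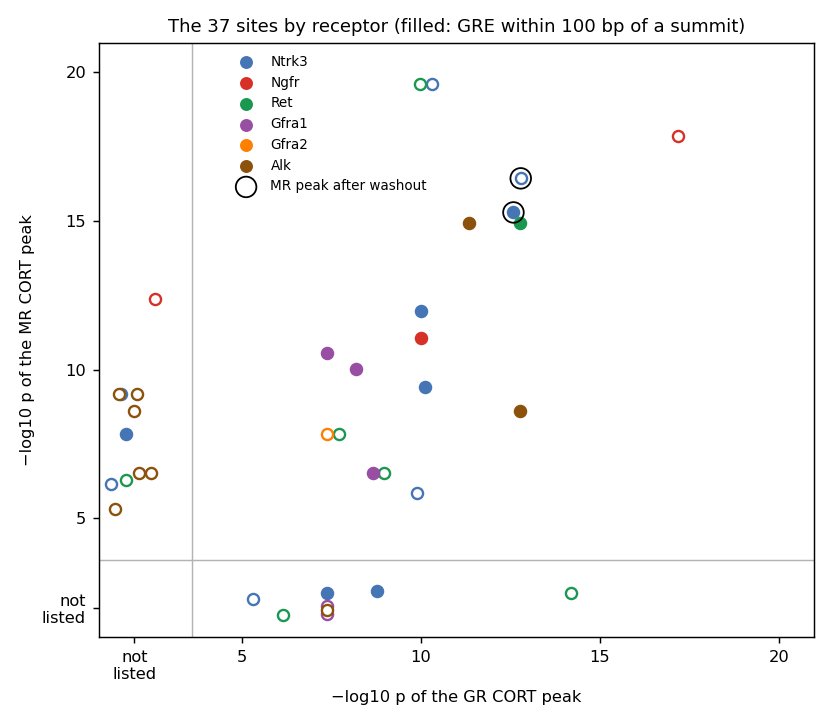
The 37 sites by the −log10 p of their strongest GR (horizontal) and MR (vertical) peak after CORT, coloured by gene. Sites with no peak of a receptor stand in the strip marked not listed, where their spread has no meaning, and coincident points are set side by side. Filled points have a GRE within 100 bp of a summit, and black rings mark the 2 sites with an MR peak after washout.

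At the 8 genes, peaks shared by both receptors had higher medians than the others. Of the 27 GR peaks, 19 were overlapped by an MR peak (70.4%, exact interval 49.8% to 86.2%), and 61.0% of the whole GR list were. Of the 30 MR peaks, 19 were overlapped by a GR peak (63.3%, 43.9% to 80.1%), against 47.6% of the MR list. Both intervals hold the share of their list, so neither difference was larger than the counting error of so few peaks. The median −log10 p was 10.6 for MR peaks with a GR peak and 7.83 for those without, against 10.8 and 7.83 in the list. For GR the medians were 9.99 and 7.38, against 9.99 and 7.57. At the 18 shared sites the summits lay 2 to 71 bp apart with a median of 16 bp, and 14 were within 50 bp.

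A GRE was found at 13 of the 37 sites. It was present at 10 of the 18 sites of both receptors (55.6%), 2 of the 8 of GR alone and 1 of the 11 of MR alone. By peak, a GRE was in 10 of 19 GR peaks with an MR peak (52.6%, exact interval 28.9% to 75.6%) and 2 of 8 without (25.0%, 3.19% to 65.1%), against 42.3% and 30.6% of the GR list. It was in 11 of 19 MR peaks with a GR peak (57.9%, 33.5% to 79.7%) and 1 of 11 without (9.09%, 0.230% to 41.3%), against 41.3% and 38.5% of the MR list, and all 4 intervals hold the share of their list. In all, 12 of 27 GR peaks (44.4%) and 12 of 30 MR peaks (40.0%) had one, close to the 37.7% and 39.9% of all peaks of these lists. Windows of the same length 1000 bp away from the summits of the lists held one in 14.6% and 15.2%. The count depends on the mismatches allowed, with 7 sites at up to 2 and 31 at up to 4. AP-1 letters (TGACTCA) were at 3 sites, GATA letters (AGATAA) at 4 and NF-1 letters (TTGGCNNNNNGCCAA, up to 2 mismatches) at 3. Among the 30 MR peaks, 3 held AP-1 and 4 held GATA letters (13.3%), against 7.81% and 12.6% of the list.

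Washout left a peak at 2 of the 37 sites, both at Ntrk3 and both for MR. In intron 12, the MR value was 15.3 after CORT and 7.79 after washout, where the peak ranked 3376 of 4885 and its summit lay 29 bp from the CORT summit. At the non-coding exon upstream of the main coding start, the MR value was 16.4 after CORT and 12.3 after washout (rank 1141 of 4885), with summits 38 bp apart. The first site has a GRE and the second has AP-1 letters and no GRE. At both, GR had a peak after CORT, with values of 12.6 and 12.8, and none after washout. The values of different lists are set side by side and were not tested, since −log10 p also follows sequencing depth.

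Among the 30 MR CORT peaks, 2 were overlapped by an MR washout peak (6.67%, exact interval 0.818% to 22.1%), against 24.6% of the whole MR list. The share of the list lies just outside this interval. Neighbouring peaks are not independent, so the interval may be too narrow, and the difference was not tested. The list kept more of its strong peaks, from 60.5% of the strongest 2927 peaks to 7.48% of the weakest 2928. The 30 peaks fell into the 5 equal parts of the list as 7, 5, 6, 4 and 8 from the strongest down, and weighting the shares of the list by these numbers gave 25.4%. In the strongest part 2 of 7 had a washout peak (28.6%, 3.67% to 71.0%). The 5 that did not were the strongest of Ret and Ngfr, the second of Ret, the strongest of Alk, and the Ntrk3 site by the coding start, which with Ret shared the best MR rank at the 8 genes. No GR CORT peak was overlapped by a GR washout peak (0 of 27, which allows up to 11.1%), against 2.13% of the GR list. An MR washout peak overlapped 2 of the 27 GR CORT peaks (7.41%, exact interval 0.910% to 24.3%), against 28.2% of the GR list, with the same limits.

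**Figure D4:**
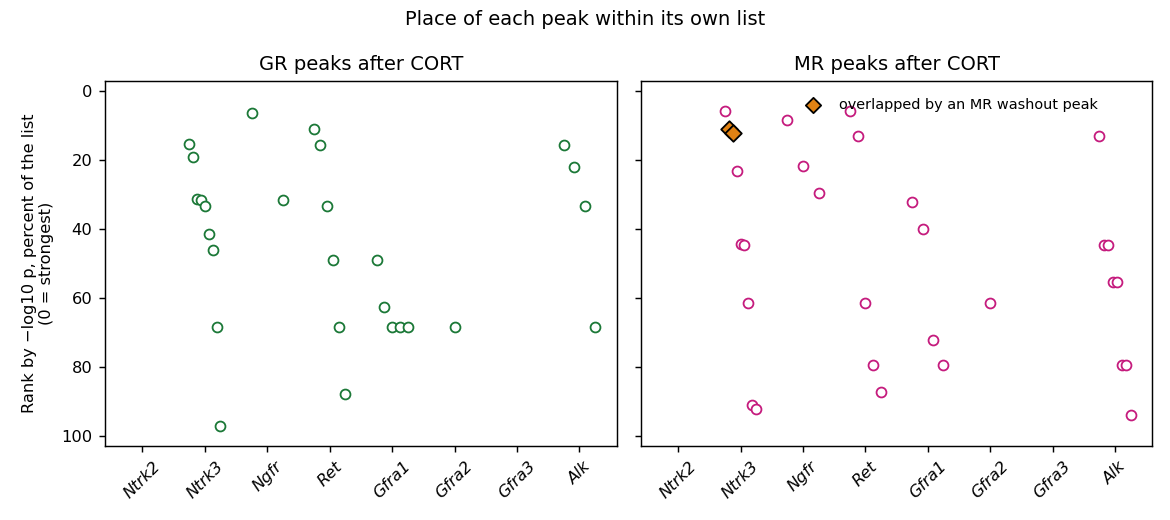
Rank of each CORT peak at the 8 genes by −log10 p, as a percentage of its own list with the strongest at the top, for GR (left) and MR (right). Orange diamonds are the MR peaks overlapped by an MR washout peak, at 11.1% and 12.2%. The best peak of Gfra1 is at 32.1%, whereas Ntrk3, Ngfr, Ret and Alk each have a peak at 15.7% or better in both lists.

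As a group the 8 genes had peaks of ordinary strength. The median −log10 p was 9.89 for their GR peaks, against 8.66 in the list, and 9.17 for their MR peaks, the same as in the list. In the strongest 10% of a list stood 1 GR peak, that of Ngfr, and 3 MR peaks, at Ret, Ntrk3 and Ngfr. Many peaks shared a value, such as the 1187 GR peaks at 7.38, so ranks are those of the first of a tied group.

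Other genes of these pathways were taken from a list of 45. GR peaks after CORT lay at 14 of them (31.1%) and MR peaks at 17 (37.8%), against the 26.3% and 30.2% of all genes, and 12 had both. By role, 3 of 13 ligands, 5 of 11 other receptors and co-receptors and 6 of 21 adaptors and effectors had a GR peak, and 4, 6 and 7 had an MR peak. After washout none had a GR peak, against 1.02% of all genes, and 9 had an MR peak (20.0%), against 14.3% of all genes. Of those with both receptors, the best MR ranks were at Shc2, an adaptor of Trk receptors (rank 492, −log10 p 23.7), Gdf15, the distant GDNF relative that signals through Ret (596, 22.7), and Gfra4, the persephin co-receptor (643, 21.2). They were followed by Gab2, a docking adaptor (823, 19.6), and Sort1, which encodes sortilin, a partner of p75 (1777, 15.3). Gdf15 had the best GR rank of the 5, 115 with a −log10 p of 27.2, and no washout peak. Shc2, Gfra4 and Gab2 each had 2 MR washout peaks and Sort1 had 1.

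The genes whose peaks per 100 kb over the 6 lists were nearest to those of Ntrk3, the gene with the most CORT peaks, were Fndc3b, Msi2 and Auts2. Their sums of absolute differences were 0.271, 0.272 and 0.302 peaks per 100 kb, and they had 5, 6 and 16 GR and 5, 6 and 17 MR peaks after CORT. Each had 0 GR washout peaks, as Ntrk3 did, and 2, 2 and 6 MR washout peaks. The washout lists were among the 6 used to choose these genes, so this likeness follows from the choice.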

How the data were processed

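ChIP-nexus libraries of N2A cells were sequenced by the authors, who trimmed reads, aligned them with Bowtie 2 to mm10, removed duplicates by random barcode and combined the 3 replicates of each condition. Peaks were called by the authors with MACS2 2.1.1.20160309 against input at a false discovery rate of 0.05, and border pairs with MACE. The deposited −log10 values are a peak's −log10 p against input (sixth column) and its −log10 q, which stands under the heading for fold enrichment. The headings are shifted, and the eighth column is the distance of the summit from the peak's start. These values were used to rank peaks within a list. Of the border pair files the positions were used. Read counts are not in these files, so the depth behind each list was not analysed here, and depth decides which weak peaks are listed. The border pair list of GR after CORT holds fewer pairs than the study describes for GR.

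Genes were those of GENCODE M21 and sequence was read from GRCm38.p6 of RefSeq, whose chromosome lengths match mm10. A summit was counted once for each gene it reached, and overlap was at least 1 bp. Percentages have exact Clopper-Pearson 95% intervals, densities exact Poisson intervals, and a share of 0 a limit of 3 counts. No test was run, since there is 1 list per condition. Member genes, lists and printed sites were chosen with earlier results of these data known. All 8 members are described. Of the 45 pathway genes, those with peaks in both CORT lists could be named, with values for the 5 best MR ranks. The 3 genes most like Ntrk3 were taken by the smallest sum of absolute differences over 6 lists, and the count of summits in 10 kb, the comparison with flanking windows and the GRE shares by overlap were added after the data were seen. The scripts were tested on simulated peaks and motifs. Python 3.11.15, numpy 2.4.6, pandas 2.3.3, scipy 1.17.1, pysam 0.24.0, samtools 1.23.1 and matplotlib 3.10.9 were used.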

Additional observations from a re-analysis of the deposited data

How the results depend on the processing

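Of 53 alternative values, 46 stayed within 1.5 times the reported count. Counting summits within 5 kb, within 50 kb or in gene bodies alone gave 26 to 28 GR and 28 to 33 MR CORT peaks, and left 0 GR and 2 MR washout peaks. Restricting the lists to peaks with a −log10 q of at least 5 left 14 GR and 16 MR CORT peaks, 10 sites of both receptors, and 1 MR washout peak, which overlapped 1 MR CORT peak. That threshold kept 45.5% of the GR and 53.4% of the MR CORT list, so fewer peaks entered by construction. A GRE with at most 2 mismatches was found at 7 sites and with at most 4 at 31, by construction of the match. Summits within 50 bp as the criterion for a shared site gave 14. No paired analysis was possible because each condition has 1 list made from combined replicates, and leaving out a replicate was not possible for the same reason. Since the depth behind each list was not analysed here, an unlisted peak was not detectable at the authors' threshold and is not shown to be absent.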

Other observations

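Lists of exonuclease border pairs, which entered no comparison between receptors, held few pairs at the 8 genes with their flanks. The input lists had 3 pairs after vehicle, at Ntrk3 and Gfra1, 3 after CORT, at Ntrk2, Ntrk3 and Alk, and 1 after washout, at Ntrk3. None of these 7 overlapped a receptor peak. MR after CORT had 2 of its 3285 pairs at the genes, the one in the coding exon of Ngfr and one of 93 bp in the upstream flank of Ntrk3 that overlapped no peak. Of the other 5 receptor lists, the 4 of vehicle and washout had 0. The list of GR after CORT holds 139 pairs here, fewer than the study describes for GR, so nothing is read from its lack of pairs at these genes. Over the whole MR list, 10.4% of CORT peaks lay on an MR border pair, and at the 8 genes 1 of 30 did (3.33%, exact interval 0.0844% to 17.2%).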
